A study of Saccharomyces cerevisiae with 12 samples.

Results

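The carnitine acetyl shuttle of Saccharomyces cerevisiae was represented by 4 genes of the 6256 on the array, chosen by gene name: CAT2 (YML042W), YAT1 (YAR035W), YAT2 (YER024W) and CRC1 (YOR100C). Acetyl-CoA does not cross the membranes of peroxisomes or mitochondria, so acetyl groups made outside the mitochondrial matrix can be moved onto carnitine, carried across as acetylcarnitine and returned to coenzyme A inside, where they enter the TCA cycle. CAT2 encodes the carnitine acetyltransferase of both peroxisomes and mitochondria, YAT1 encodes a carnitine acetyltransferase of the mitochondrial outer membrane, and YAT2 encodes a related carnitine acetyltransferase. CRC1 encodes the inner membrane carrier that takes acetylcarnitine into the matrix in exchange for carnitine. The shuttle is best known from yeast growing on fatty acids, acetate or ethanol. This yeast does not make carnitine and takes it up from the medium. When carnitine is absent, acetyl groups can leave the peroxisome as citrate or other intermediates of the glyoxylate cycle, through the citrate synthase Cit2.

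FY4, a haploid, prototrophic MATa strain derived from S288C, was grown on filters over minimal medium with glucose and ammonium, and the filters were then moved to medium without glucose (carbon starvation, ammonium kept) or without ammonium (nitrogen starvation, glucose kept). One RNA sample was hybridised for each starvation 10, 30 and 60 min after the switch and again after 120, 240 and 480 min, which gave 6 arrays for each starvation and 12 in all. Every array carried the starved sample in Cy5 (red) against RNA from exponentially growing cells before the switch in Cy3 (green), with no array of swapped dyes. Each value below is therefore the log2 ratio of starved cells over the zero timepoint, and a bias tied to the dye cannot be told apart from the starvation. Poly(A)+ RNA was loaded in about equal amounts in both channels, so a ratio is relative to the RNA pool. A larger share of cells holding a transcript cannot be told apart from more of it in every cell. In the green channel, 5 of 5 genes specific to MATa cells (STE2, STE6, BAR1, MFA1 and MFA2) were well above background on all 12 arrays. Of the 4 genes specific to alpha cells, MF(ALPHA)1 and MF(ALPHA)2 were above it on 0 arrays, STE3 on 10 and SAG1 on 12. The green signals of STE3 and SAG1 were 34.1 to 59.3, against 266 to 3300 for the MATa genes.

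The early arrays stood apart from the rest, all but 2 of them. The carbon starvation arrays at 10, 30 and 60 min and the nitrogen starvation array at 10 min did not match the column of their own label in the ratio table that accompanies the study (r across probes of 0.0302 to 0.623), whereas the other 8 matched it with r of at least 0.999. On those 4 arrays 42.7 to 78.4% of spots were well above background in the red channel, against 84.8 to 93.4% on the other 8. The green channel did not separate them (84.8 to 88.5% of spots on all 12 arrays). The 6 arrays at 120, 240 and 480 min all matched, and the main comparisons rest on them. Fits and correlations over 12 arrays are given with and without the 4.

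Under carbon starvation the transcripts of all 4 genes were far above the zero timepoint from 120 min on. At 10 and 30 min the red signals of CAT2, YAT1 and CRC1 were not well above background, so their ratios there do not measure a level in starved cells. The log2 ratio of CAT2 was −0.24 after 10 min, −0.08 after 30 min and 5.12 after 60 min, and then 5.89, 7.01 and 6.24 after 120, 240 and 480 min. YAT1 had ratios of −0.63, −0.21, 2.09, 5.93, 7.02 and 5.79 at the same times. All 4 genes had their highest ratio at 240 min, and all were lower again at 480 min. At 120 min the green signals of all 4 probes were above those of the other arrays, and YAT2 was saturated in red (below). The ratios therefore do not place the time of the peak firmly. YAT2 had ratios of 2.47, 0.64, 2.97, 4.97, 7.12 and 5.73, and CRC1, the carrier, of −0.36, −0.08, 2.40, 6.64, 8.33 and 6.58. CRC1 had the highest ratio of the 4 genes on each of the 3 late arrays. At 60 min CAT2 was the highest of the 4, on an array whose red channel was dim.

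Under nitrogen starvation the 4 genes separated from 60 min on into a pair with raised ratios, CAT2 and CRC1, and a pair nearer the zero timepoint. At 30 min YAT2 was the highest of the 4. CAT2 had log2 ratios of −0.55, 0.44, 1.10, 1.10, 2.54 and 2.31 from 10 to 480 min. CRC1 was well above background in neither channel at 10 min, which left no value, and had ratios of 0.47, 1.29, 1.79, 1.84 and 2.96 from 30 to 480 min. Thus the matrix and peroxisomal enzyme and the carrier were at their highest at 240 or 480 min here too. The other acetyltransferases differed from them: YAT1 had ratios of −0.97, −0.02, 0.50, 0.50, 0.66 and 0.34, and YAT2 of 1.58, 0.94, −0.20, 0.27, 0.38 and 0.36. From 60 min on, no ratio of YAT1 or YAT2 passed 0.66, and at each of these times both lay below CAT2 and CRC1. Differences between members were not tested. The split was narrower under a background correction with an offset, which draws the ratios of dim probes towards 0. Under normexp (described below) with equal totals, the late nitrogen means were 0.68 for CAT2, 0.47 for CRC1, 0.39 for YAT2 and 0.35 for YAT1. With loess they were 0.79, 0.64, 0.06 and 0.17.

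**Figure D1:**
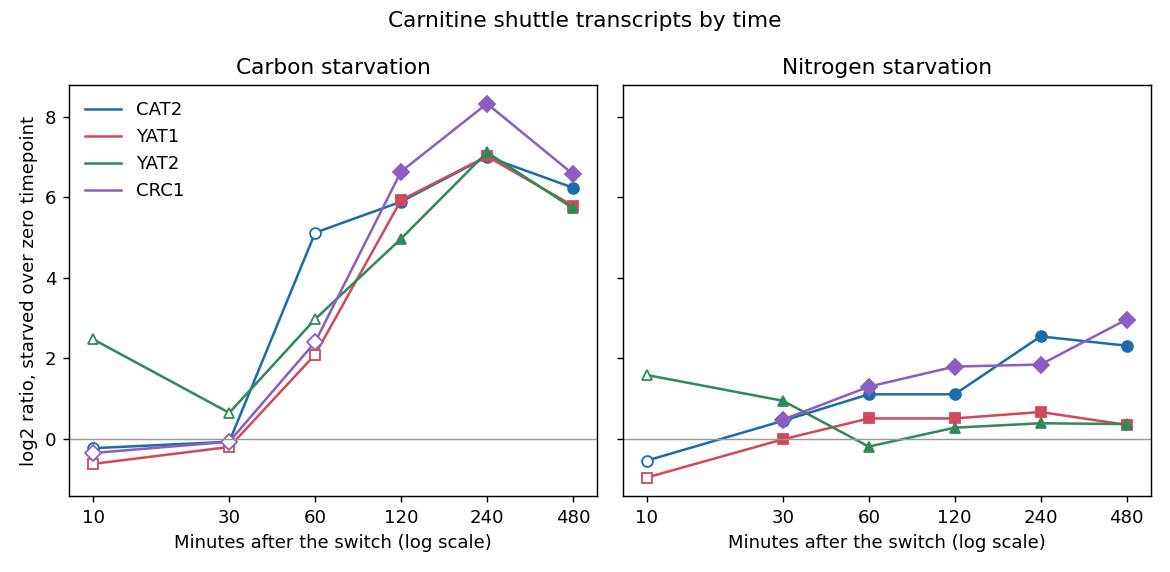
Log2 ratio of starved cells over the zero timepoint (vertical axis) against minutes after the switch (log scale) for CAT2, YAT1, YAT2 and CRC1, with carbon starvation at left and nitrogen starvation at right, 1 array per point. Open symbols mark the 4 arrays that did not match the ratio table that accompanies the study, and from 120 min on all 4 genes lay between 4.97 and 8.33 under carbon starvation and between 0.27 and 2.96 under nitrogen starvation.

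The scanner signals behind these ratios showed how close to background the reference lay. In the green channel the mean signal of the CAT2 probe was 34 to 178 over the 12 arrays and was well above background on 11 of them. CRC1 had green signals of 35.7 to 132 and was well above background there on 7 of 12 arrays, including 3 of 3 late carbon arrays and 1 of 3 late nitrogen arrays. YAT1 and YAT2 were above it on all 12. The size of a CRC1 or CAT2 ratio therefore depends on how background was handled. In the red channel of the late carbon arrays the signals were 2160 to 22700 for CAT2, 6940 to 22500 for YAT1, 15100 to 64400 for YAT2 and 2580 to 26500 for CRC1. On the 6 nitrogen arrays they were 31.1 to 335 for CAT2, 38.2 to 288 for YAT1, 230 to 876 for YAT2 and 30.6 to 170 for CRC1. No red signal of a late carbon array overlapped those of the nitrogen arrays for any of the 4 genes.

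**Figure D2:**
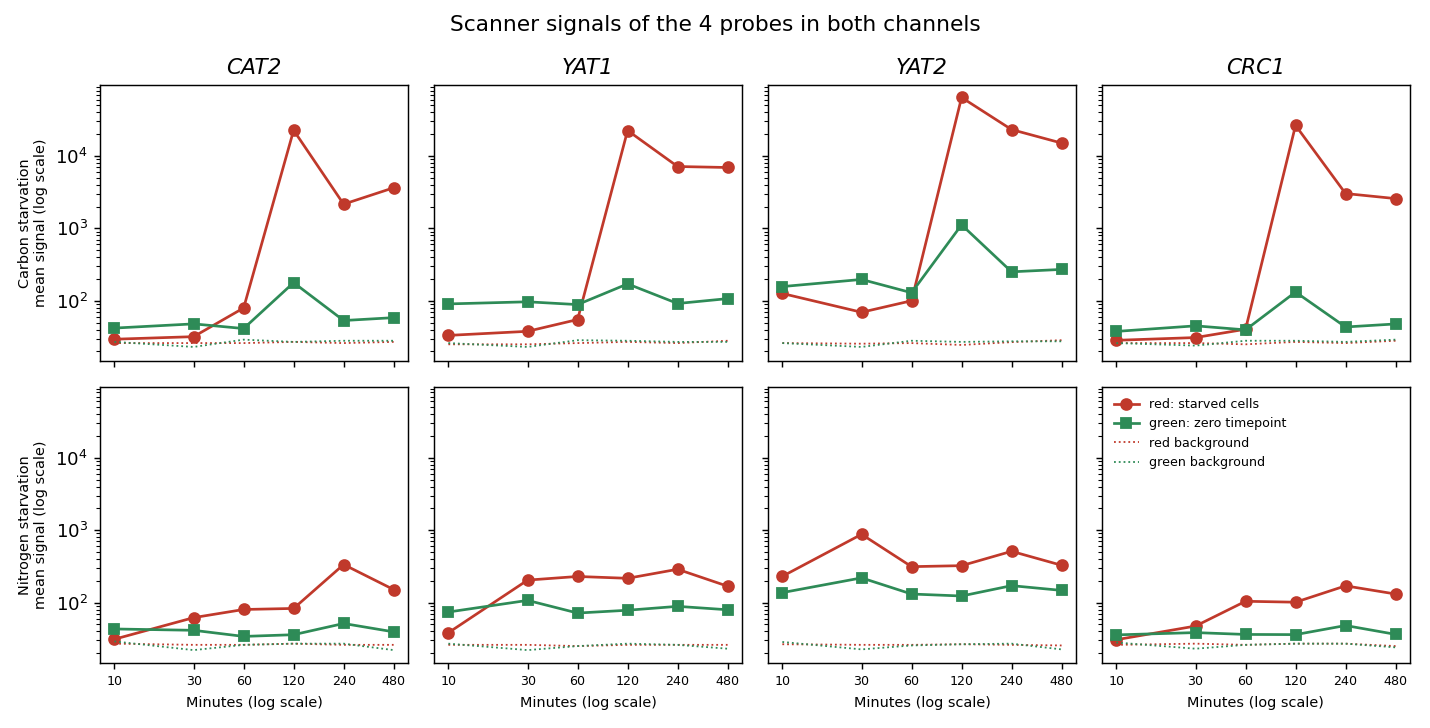
Mean scanner signal in arbitrary units (vertical axis, log scale) of the probes for CAT2, YAT1, YAT2 and CRC1 against minutes after the switch (log scale), with carbon starvation above and nitrogen starvation below. Red circles are starved cells, green squares are the zero timepoint and dotted lines are the local background of each channel. Red signals of the late carbon arrays reached 22700 for CAT2, while green signals of CAT2 and CRC1 stayed near background on all arrays but that of carbon starvation at 120 min.

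On the carbon starvation array at 120 min the green signal of all 4 probes was above that of the other 11 arrays: 178 against 34 to 58.4 for CAT2, 171 against 71.5 to 107 for YAT1, 1120 against 123 to 271 for YAT2, and 132 against 35.7 to 48.1 for CRC1. The median green signal of that array was 143, within the range of 113 to 185 over all 12. On the same array both YAT2 spots were saturated in red, and their ratios differed by 0.44 on the log2 scale against at most 0.15 on the others, so 4.97 is a ratio of a saturated signal. The part of the higher green signal in the ratios was not tested. Without this array the late carbon means were 6.63 for CAT2, 6.41 for YAT1, 6.43 for YAT2 and 7.45 for CRC1, each above the mean with it. The YAT2 ratios at 10 min of both starvations came from arrays that stood apart, as did those at 30 and 60 min of carbon starvation. At 10 min of carbon starvation its mean red signal of 126 was below its green signal of 157. The log2 ratio was nevertheless 2.84 after the scanner software's dye normalisation, and 2.47 after the further scaling to equal channel totals. At 60 min the CAT2 ratio of 5.12 rested on a red signal of 79.5 over a background of 26.

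Against the zero timepoint, late carbon starvation (120, 240 and 480 min) raised all 4 transcripts. Among the acetyltransferases, CAT2 was at a mean log2 ratio of 6.38 ± 0.57 (SD, n = 3 times), or 83.4-fold, YAT1 at 6.25 ± 0.67, or 76.0-fold, and YAT2 at 5.94 ± 1.09, or 61.5-fold. The carrier CRC1 was at 7.18 ± 0.99, or 145-fold. All 4 passed an adjusted p of 0.05 (limma with Benjamini-Hochberg adjustment over 5703 genes), with adjusted p-values of 7.43e-08 for CAT2, 5.83e-08 for YAT1, 1.64e-07 for YAT2 and 8.23e-08 for CRC1. In this comparison 31.4% of all genes tested were called higher and 36.9% lower, and the median gene was at −0.07. By the size of the rise, CRC1 stood at place 28, CAT2 at 44, YAT1 at 51 and YAT2 at 65 of the 5703. The sizes of 2 of these rises depended on background correction. The alternative was normexp, a model of signal plus noise used with an offset of 50. An offset added to both channels draws the ratios of dim probes towards 0, and its part here was not tested. Under normexp CAT2 was at 5.27 with loess normalisation (38.7-fold) and 5.42 with equal channel totals (42.8-fold). CRC1 was at 5.58 (47.8-fold) and 5.76 (54.1-fold). YAT1 was then at 5.89 and 5.87 and YAT2 at 6.22 and 5.65, so that CRC1 was no longer the highest of the 4. The order of places changed too. With loess YAT2 stood at place 20, YAT1 at 26, CRC1 at 38 and CAT2 at 43. The 95% intervals of the 4 means overlapped (5.68 to 7.09 for CAT2, 5.65 to 6.85 for YAT1, 5.18 to 6.70 for YAT2 and 6.37 to 7.99 for CRC1), and differences between members were not tested. The 3 late times stand in for replicates, as there was 1 array per time, so the errors hold the change between times together with the technical spread. The labels name no separate cultures, and the test against the reference leaves out the reference's own spread.

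Late nitrogen starvation raised CAT2 and CRC1, by far less. CAT2 was at 1.98 ± 0.78 (SD, n = 3 times), or 3.95-fold, with an adjusted p of 0.000379 (limma), and CRC1 at 2.20 ± 0.66, or 4.59-fold, with an adjusted p of 0.000465. With 33.1% of all genes tested called higher and 20.7% lower in this comparison, a call of 2 in 4 members was not far from the share over all genes. YAT1 was at 0.50 ± 0.16 (95% interval −0.10 to 1.10, adjusted p = 0.143, limma) and YAT2 at 0.34 ± 0.06 (95% interval −0.43 to 1.10, adjusted p = 0.433). Neither passed the test, and the median gene was at 0.25. CAT2 stood at place 467 and CRC1 at place 389 of 5703 by the size of the rise, or at 823 and 1051 under normexp with loess. The CRC1 call was lost under normexp, at 0.64 with loess normalisation (adjusted p = 0.0635, limma) and 0.47 with equal channel totals (adjusted p = 0.188). The CAT2 call held in the first of these, at 0.79 (adjusted p = 0.0150), and was lost in the second, at 0.68 (adjusted p = 0.0845).

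The difference between the starvations was itself tested on the same 6 arrays. All 4 transcripts were lower in late nitrogen than in late carbon starvation. YAT1 differed by −5.75 on the log2 scale (SE 0.38, adjusted p = 1.37e-05, limma), so that it was 53.7-fold higher under carbon starvation, and YAT2 by −5.61 (SE 0.49, adjusted p = 3.8e-05), or 48.7-fold. CRC1 differed by −4.98 (SE 0.52, adjusted p = 0.000119), or 31.6-fold, and CAT2 by −4.40 (SE 0.45, adjusted p = 0.000114), or 21.1-fold. Among all genes tested, 5.86% were called lower in this comparison and 16.1% higher, and the median gene was at 0.23. Median centring of each array moved the median gene to −0.09 and split the calls into 844 higher and 880 lower, against 919 and 334, with all 4 members still lower. Counted from the lowest difference, YAT1 stood at place 12, YAT2 at 13, CRC1 at 17 and CAT2 at 21 of 5703. At each of the late times the same order of starvations held in every gene. At 120, 240 and 480 min the carbon ratio exceeded the nitrogen ratio by 4.80, 4.47 and 3.93 for CAT2, by 5.44, 6.35 and 5.45 for YAT1, by 4.70, 6.74 and 5.37 for YAT2, and by 4.85, 6.49 and 3.61 for CRC1. At 30 min these differences were −0.52 for CAT2, −0.19 for YAT1, −0.29 for YAT2 and −0.55 for CRC1, with the carbon array among those that stood apart.

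**Figure D3:**
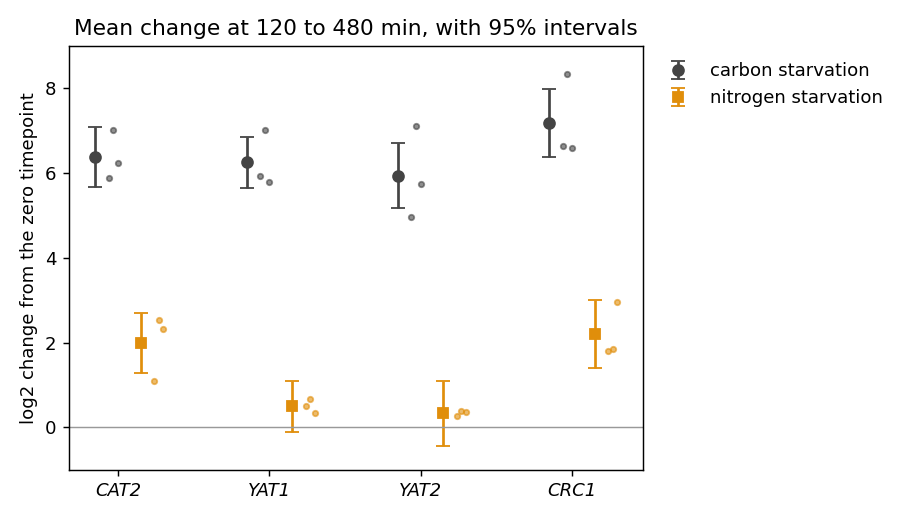
Mean log2 change from the zero timepoint over 120, 240 and 480 min (vertical axis) for CAT2, YAT1, YAT2 and CRC1 under carbon starvation (dark circles) and nitrogen starvation (orange squares). Bars are 95% intervals of the limma fit and small points are the 3 arrays behind each mean. The carbon means of 5.94 to 7.18 lay above the nitrogen means of 0.34 to 2.20, and the arrays of the starvations did not overlap in any gene.

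Over all 6 times the rise under carbon starvation was called for all 4 genes, at 3.99 for CAT2 (adjusted p = 0.00166, limma), 3.33 for YAT1 (adjusted p = 0.00464), 3.98 for YAT2 (adjusted p = 0.000173) and 3.92 for CRC1 (adjusted p = 0.00497), where 16.4% of 5578 genes tested were called higher. Without the 4 arrays that stood apart the carbon means rest on the 3 late arrays and were again 6.38, 6.25, 5.94 and 7.18. Under nitrogen starvation none of the 4 was called over 6 times, while 41.5% of genes were called in either direction. CAT2 was at 1.16 (adjusted p = 0.295, limma), YAT1 at 0.17 (0.887), YAT2 at 0.56 (0.485) and CRC1 at 1.67 over 5 arrays (0.233). The difference between starvations was called for YAT2 alone, at −3.43 (adjusted p = 0.0264, limma), where 0.502% of genes were called lower. Without the 4 arrays, the same difference was called in CAT2 at −4.89, YAT1 at −5.85, YAT2 at −5.59 and CRC1 at −5.51, and the nitrogen rise was called in CAT2 at 1.50 (adjusted p = 0.00153) and CRC1 at 1.67 (adjusted p = 0.0017). The YAT2 call over 6 times was lost on leaving out the carbon array at 480 min (−3.08) or the nitrogen array at 60 min (−3.28), 120 min (−3.37) or 240 min (−3.39). Calls were gained by CAT2 (−3.68) and YAT1 (−3.96) on leaving out the carbon array at 10 min and by YAT1 (−3.87) on leaving out that at 30 min.

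The genes for carnitine uptake moved in opposite directions under carbon starvation. The study's description of its media (yeast nitrogen base without amino acids, glucose, agarose) names no carnitine. Whether the cells held carnitine, or the shuttle ran, was not measured by these arrays. AGP2, the plasma membrane transporter through which yeast takes up carnitine, was at 3.56 in late carbon starvation (SE 0.26, adjusted p = 8.03e-07, limma) and at 2.89 in late nitrogen starvation (adjusted p = 9.54e-06), with a difference between them of −0.67 (adjusted p = 0.238), which was called at −0.60 under normexp with loess (adjusted p = 0.0337). HNM1, the choline permease that also takes up carnitine, fell by 2.57 in late carbon starvation (SE 0.26, adjusted p = 6.02e-06) and was at 0.36 in late nitrogen starvation (adjusted p = 0.26). Under normexp with loess AGP2 was at 1.75 in carbon and 1.15 in nitrogen starvation, still called in both. Thus AGP2 was raised in both starvations and HNM1 was called higher in neither. YAT1 and YAT2 were called only in carbon starvation and differed between the starvations.

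Among the 8 genes listed for acetate and acetyl-CoA metabolism, 5 rose and 3 fell in late carbon starvation, with a median of 3.42. Over all genes tested 31.4% were called higher and 36.9% lower, and under normexp with loess 2 of the 8 fell. ACS1, the acetyl-CoA synthetase of cells growing without glucose, rose by 8.70 (SE 0.29, adjusted p = 2.29e-08, limma), at place 1 of 5703 genes, or at place 5 under normexp with loess (7.55). ACS2, the synthetase of glucose-grown cells, fell by 2.49 (adjusted p = 0.00014). The aldehyde dehydrogenases did not move together: ALD3 rose by 6.16 and the mitochondrial ALD4 by 6.07, while ALD5 fell by 4.11. ALD6, which the study describes as oxidising acetaldehyde to acetate, fell by 1.13 (adjusted p = 0.0446, limma). It rose by 1.56 in late nitrogen starvation (adjusted p = 0.013, limma). In late nitrogen starvation 6 of the 8 rose and 1 fell, where 33.1% of all genes were called higher and 20.7% lower. ACS1 was then at 1.83 (adjusted p = 0.000336), or 0.86 and not called under normexp with loess (adjusted p = 0.052), and ACS2 at 0.45 (adjusted p = 0.341). Between the starvations ACS1 differed by −6.87 (adjusted p = 6.5e-06), in the same direction as the 4 shuttle genes, and ACS2 by 2.94 (adjusted p = 0.00325).

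Peroxisomal beta-oxidation, the source of peroxisomal acetyl-CoA, was also raised in late carbon starvation. Of its 12 genes 11 were called higher in late carbon starvation, with a median of 6.12 against −0.07 over all genes, and 0 lower. Over all genes 31.4% were called higher and 36.9% lower. The thiolase POT1, which releases acetyl-CoA, was at 8.34 (SE 0.49, adjusted p = 1.79e-07, limma) and the acyl-CoA oxidase POX1 at 7.20 (SE 0.45, adjusted p = 2.76e-07). Under normexp 11 were called as well, with medians of 3.78 (loess) and 4.09 (equal totals), against 5.74 and 5.70 for the 4 shuttle genes, and POX1 was at 4.90 and 5.16. The gene not called was ANT1, the peroxisomal adenine nucleotide carrier, at −0.51 (adjusted p = 0.145). In late nitrogen starvation 10 of the 12 rose, against 33.1% of all genes, with a median of 1.96, and POT1 was at 5.14 and POX1 at 2.91. Under normexp with equal totals 6 of the 12 did, with a median of 0.83, POT1 at 2.76 and POX1 at 0.38 (adjusted p = 0.298). Between the starvations 10 of the 12 were lower under nitrogen starvation and 0 higher, against 5.86% and 16.1% of all genes. Their median was −3.90, against medians of −5.29 for the 4 shuttle genes and 0.23 for all genes.

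The glyoxylate cycle is the other route by which acetyl groups leave the peroxisome, and 6 of its 7 genes rose and 1 fell in late carbon starvation, with a median of 4.31. Over all genes 31.4% were called higher there and 36.9% lower. CIT2, the peroxisomal citrate synthase, was at 5.66, 4.31 and 2.95 at 120, 240 and 480 min of carbon starvation, and at −2.72, −2.32 and −2.93 at the same times of nitrogen starvation. It therefore rose in one starvation, by 4.31 (SE 0.41, adjusted p = 4.07e-06, limma), and fell in the other, by 2.66 (adjusted p = 0.000255). CAT2 and CRC1 were called higher in both. Under normexp the nitrogen call of CRC1 was lost with loess and with equal totals, and that of CAT2 with equal totals. The malate synthase MLS1 rose by 7.96 and the isocitrate lyase ICL1 by 6.11 in late carbon starvation, and both rose in late nitrogen starvation, by 5.07 and 1.10. MLS1 was at 6.15 and 2.65 in these comparisons under normexp with loess, and called in both. The ICL1 call in nitrogen starvation was lost with normexp and loess (0.66), with no further scaling (0.93) and with median centring (0.85). DAL7, a malate synthase isozyme of allantoin use, fell by 4.08 under carbon and rose by 1.34 under nitrogen starvation. In late nitrogen starvation 5 of the 7 rose and 2 fell, against 33.1% and 20.7% of all genes. Between the starvations 5 were lower under nitrogen starvation and 1 higher, against 5.86% and 16.1% of all genes.

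**Figure D4:**
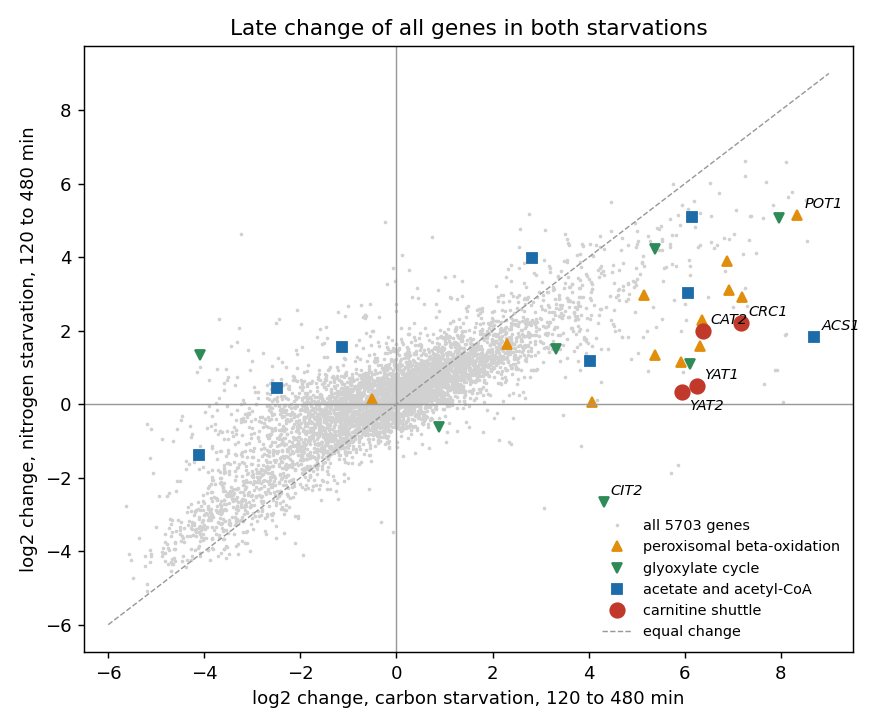
Mean log2 change at 120 to 480 min of nitrogen starvation (vertical axis) against that of carbon starvation (horizontal axis) for 5703 genes (grey points), with the 4 shuttle genes (red circles) and the genes of beta-oxidation (orange), the glyoxylate cycle (green) and acetate and acetyl-CoA metabolism (blue). The dashed line marks equal change, and the shuttle genes lay far below it at carbon changes of 5.94 to 7.18 and nitrogen changes of 0.34 to 2.20.

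Inside the matrix the acetyl group meets citrate synthase, and acetyl-CoA also arrives there from pyruvate. Of the 7 genes for mitochondrial acetyl-CoA entry, 4 rose in late carbon starvation and 3 were not called, where 31.4% of all genes were called higher and 36.9% lower. CIT3, a mitochondrial citrate synthase isozyme, rose by 8.04 (SE 0.32, adjusted p = 5.14e-08, limma) and CIT1, the main one, by 2.78 (SE 0.33, adjusted p = 2.03e-05). Under normexp with loess CIT3 was at 5.76 and CIT1 at 3.08. The subunits of the pyruvate dehydrogenase complex lay between −0.21 and 1.06. None of the 7 was called in late nitrogen starvation, where 33.1% of all genes were called higher and 20.7% lower. CIT3 was then at 0.05 (adjusted p = 0.917) and CIT1 at 0.75 (adjusted p = 0.0746). Under normexp with equal totals CIT3 was called at −0.53 (adjusted p = 0.0415) and CIT1 at 0.85 (adjusted p = 0.0358). CIT3 differed between the starvations by −7.99, at place 1 of 5703 from the lowest, and by −5.76 at place 11 under normexp with loess.

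CRC1 belongs to the mitochondrial carrier family. Of the 23 other carriers listed, 7 rose, 13 fell and 3 were not called in late carbon starvation, with a median of −1.15, where 31.4% of all genes were called higher and 36.9% lower. SFC1, the succinate-fumarate carrier that serves growth on acetate, rose by 7.25 (SE 0.57, adjusted p = 1.17e-06, limma), beside CRC1 at 7.18, and by 5.58 under normexp with loess, where CRC1 was also at 5.58. The next highest was AAC1, an ADP/ATP carrier, at 3.97, and the lowest was YMC2, a putative carrier, which fell by 4.01. In late nitrogen starvation 6 of the 23 rose and 9 fell, against 33.1% and 20.7% of all genes, with SFC1 at 3.16 and AAC1 at 2.34. The SFC1 call was lost under normexp with loess (0.96) and with equal totals (0.63). Between the starvations 3 of the 23 were lower under nitrogen starvation and 7 higher, against 5.86% and 16.1% of all genes. SFC1 was at −4.09 in this comparison (adjusted p = 0.00521), beside CRC1 at −4.98.

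Among 17 genes for regulators of carbon source use, 8 rose and 2 fell in late carbon starvation, with a median of 0.55, and 13 rose and 2 fell under normexp with equal totals. In the main setting 31.4% of all genes were called higher and 36.9% lower. Most of these proteins act through their phosphorylation or location, which these arrays do not measure. CAT8 and SIP4, activators of genes for growth without glucose, rose by 5.34 (SE 0.24, adjusted p = 5.83e-08, limma) and 4.25 (SE 0.23, adjusted p = 1.15e-07). Under normexp CAT8 was at 3.99 (loess) and 4.27 (equal totals), and SIP4 at 1.36 and 1.31, all called. HXK2, a hexokinase with a role in glucose repression, fell by 4.47 (SE 0.30, adjusted p = 4.27e-07). In late nitrogen starvation 9 of the 17 rose and 0 fell, against 33.1% and 20.7% of all genes, with CAT8 at 2.64, SIP4 at 1.51 and HXK2 at −0.32 (adjusted p = 0.389). SIP4 had no stable direction there, since it was not called under normexp with loess (0.15) and was called lower with equal totals (−0.55, adjusted p = 0.0333). Both activators were lower in nitrogen than in carbon starvation, by −2.70 for CAT8 (adjusted p = 0.000357) and −2.75 for SIP4 (adjusted p = 0.000287), or −2.63 and −1.20 under normexp with loess.

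The genes whose log2 ratios ran most like those of the members were found by Pearson's r over the arrays, among the genes with a value on all 12, as a description in which all points share the reference RNA. For YAT1 the closest over 12 arrays were ACS1 (r = 0.992) and the isomaltase genes IMA2 (r = 0.976) and IMA4 (r = 0.971). Over the 8 arrays that matched, r was 0.992, 0.993 and 0.988, so that ACS1 did not come first there. For CRC1 over 11 arrays they were ACS1 (r = 0.986), RCH1 (r = 0.980) and IDP2 (r = 0.974), which encodes the cytosolic isocitrate dehydrogenase, and 0.986, 0.983 and 0.969 over the arrays that matched. For YAT2 the closest were YIG1 (r = 0.962), PDH1 (r = 0.951), a gene of propionate use, and ADH2 (r = 0.947), the alcohol dehydrogenase that oxidises ethanol, with 0.990, 0.981 and 0.990 over the 8. For CAT2 they were the seripauperin genes PAU15 (r = 0.961), PAU22 (r = 0.960) and PAU19 (r = 0.960), with 0.939, 0.947 and 0.945 over the 8. Over those 8 arrays CAT2 ran closer to each other member, with r of 0.985 for CRC1, 0.974 for YAT1 and 0.953 for YAT2. Over 12 arrays YAT1 (r = 0.943) and YAT2 (r = 0.819) came below these PAU genes. CRC1 did not have a value on every array, so it was not among the genes compared with the other members. The PAU genes, and likewise the IMA genes, are near-identical copies, so a probe may report several of them. Among the members, YAT1 and CRC1 had the highest r over all arrays (0.972) and CAT2 and YAT2 the lowest (0.819). Over the 8 arrays that matched, CAT2 and CRC1 had the highest (0.985) and CAT2 and YAT2 again the lowest (0.953).

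The members lie on 4 chromosomes (CAT2 on XIII, YAT1 on I, YAT2 on V and CRC1 on XV of the R64 assembly). None of the 7 neighbouring genes tested was called higher in late carbon starvation, where 31.4% of all genes were. RRN11, PRO3, GCD11, KTR1 and RAS1 were called lower, where 36.9% of all genes were. So small a set of neighbours was not tested against these shares. Beside CAT2, the RNA polymerase I factor RRN11 fell by 2.90 and VPS71 was at 0.50 (adjusted p = 0.0905, limma). Beside YAT2, PRO3, of proline synthesis, fell by 2.30 and GCD11, a translation initiation factor subunit, fell by 2.75. CRC1 lies between KTR1, a mannosyltransferase gene, which fell by 1.20, and RAS1, which fell by 1.38. The neighbour of YAT1 that was tested, MST28, was at 0.29 (adjusted p = 0.535).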

How the data were processed

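Scanner output of 12 Agilent Yeast Oligo Microarrays (V2) was used. Per the file headers, the deposited intensity values were made with Agilent Feature Extraction A.7.5.1, whose processed signals are background-subtracted and dye-normalised. A deposited series table holds the authors' processed values of the same arrays, which are on the log2 scale. The deposited log10 ratios of the scanner files served only to set arrays against the ratio table that accompanies the study, of which 1995 rows were held. Its values are not reported.

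Red over green processed signals were taken as log2 ratios, with each array scaled to equal channel totals over 10263 non-control spots, as in the study's methods; the shift was −0.42 to 0.68. Control spots and outlier-marked spots were dropped, as were spots that no channel put well above background, and spots were averaged by systematic name, which left no CRC1 value at 10 min of nitrogen starvation. YAT2 had 2 spots, the other members 1. Duplicate spots differed with an SD of 0.12 to 0.28. The number of arrays, 1 per starvation and time, limits precision.

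Contrasts were fitted with limma 3.58.1 in R 4.3.3 on all genes with at least 2 (late) or 4 (6 times) values per starvation, with Benjamini-Hochberg adjustment and a threshold of 0.05. The procedure was tested on simulated data. The members and gene lists were chosen with earlier results of these data known. Outside the members, the text names the top 2 rises and the largest fall called in each list in late carbon starvation, set genes (AGP2, HNM1, CIT2, ACS1, ACS2, CIT1) and the 3 genes most like each member. ALD4, ALD6, ANT1 and the neighbouring genes were added after their values were seen. Symbols came from R64, which held 5756 of the names. Coordinates and sequences are not given, since no genome was used here. Alternatives were the background correction, scaling, filter, table, arrays left out, time as a block and slide as a random block.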

Additional observations from a re-analysis of the deposited data

Results flagged for a closer look

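The effect of late starvation differed between the carbon and nitrogen arrays in all 4 shuttle genes, by a test of the difference itself (limma, nitrogen minus carbon). The differences were −4.40 for CAT2, −5.75 for YAT1, −5.61 for YAT2 and −4.98 for CRC1 on the log2 scale, with carbon above nitrogen at 3 of 3 late times in each gene. Over all 6 times the difference passed the test in YAT2, at −3.43, with carbon above nitrogen at 5 of 6 times. No array of either starvation lay far enough from the others to be marked for any member, by Dixon's test at the 95% level. That test set the different times of a starvation together as values of a single level. It therefore cannot tell an outlying array from a change with time, and nothing follows for the 4 arrays that stood apart.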

How the results depend on the processing

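All 4 members kept their direction and call in late carbon starvation and in the difference between the late starvations, under the 14 alternatives run (13 for CRC1). In late nitrogen starvation the calls lost were CRC1 at 0.64 under normexp with loess, and CRC1 at 0.47 and CAT2 at 0.68 under normexp with equal totals. No alternative reversed a called value of a member. Median centring gave 1649 higher and 1750 lower in late nitrogen starvation, against 1886 and 1182, and 1611 higher and 1607 lower in carbon starvation over 6 times, against 914 and 2242.

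Over 6 times the difference between starvations was less stable. Normexp with loess took the YAT2 call away (−3.56, adjusted p = 0.132, limma) and left 16 genes called, against 588. Normexp with equal totals called CAT2 (−3.80), YAT1 (−3.68) and CRC1 (−4.01) and 1354 genes, of which 240 were higher. No further scaling gave 170 genes (131 higher) and median centring 77 (41 higher), against 560 of 588 higher. The series table gave 174, called CRC1 (−4.21) and called its nitrogen rise (1.53). Spots above background in both channels called CAT2 (−4.47) and YAT1 (−5.04), and the nitrogen rise of CAT2 (1.60). Without the 4 arrays that stood apart, 1496 genes were called, with CAT2 (−4.89), YAT1 (−5.85) and CRC1 (−5.51), and the nitrogen rises of CAT2 (1.50) and CRC1 (1.67). Causes were not tested.

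Leaving out 1 array gave 233 to 721 genes called over 6 times, and 679 to 1549 for the late difference. The member differences over 6 times were then −3.68 to −2.23 for CAT2, −3.96 to −2.43 for YAT1, −4.10 to −2.80 for YAT2 and −3.10 to −1.37 for CRC1.

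The time points as a replicate block raised the genes called to 891 (6 times) and 1955 (late, against 1253), and called CAT2 (−2.84, adjusted p = 0.0324, limma) and YAT1 (−3.16, adjusted p = 0.0433) over 6 times. It changed no other call of a member. Arrays of the same time correlated in their deviations at 0.444 to 0.647, except −0.41 at 60 min, where the carbon array is one of the 4 that stood apart. The labels name no shared batch for a time, and not every pair correlated, so the arrays were not treated as paired. The late pairs all correlated, at 0.61 (120 min), 0.444 (240 min) and 0.487 (480 min). The deviations were from means over 6 times, so pairing among the late arrays alone was not measured. The main test of the late difference did not model a shared time. The slide could not be a block for the late arrays, which lay 1 to a slide. The both-channel filter left CRC1 untested in the late fit.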
